A study of Mus musculus with 10 samples.

Results

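The 9 genes described here are *Isg15*, *Ifit1*, *Ifit3*, *Oasl2*, *Rsad2*, *Usp18*, *Irf7*, *Irf9* and *Stat2*, a set of type I interferon-stimulated genes together with subunits of the transcription factor that switches them on. Their rows in the gene count table were found by the Ensembl identifiers that map to these symbols, and the rule used no measured value, although the set was put together with earlier results of these data known. All 9 were found among the 21939 genes of the table, and each belonged to the 13641 genes that were tested, those whose summed count across the 10 mice reached 10. The question was how the loss of Nrf2, of p65 or of both in hepatocytes changed the level of these genes.

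Hepatocytes were freshly isolated from adult male mice of 4 genotypes, aged 8 to 9 weeks, and their poly(A) RNA was sequenced. The control group held 3 C57BL6/j mice, the Nrf2 KO group 2 Nrf2 flox/flox mice, the p65 KO group 2 p65 flox/flox mice, and the group lacking both factors (DKO) 3 Nrf2:p65 floxed mice. Every mouse, controls included, had received AAV8Cre, an adeno-associated virus that expresses the Cre recombinase from a hepatocyte-specific promoter, 12 days before the liver was taken. Deletion was therefore restricted to hepatocytes by the promoter, the other liver cells kept both genes, and all groups carried the virus.

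Type I interferons are antiviral cytokines that bind the receptor made of Ifnar1 and Ifnar2. The receptor-bound kinases Jak1 and Tyk2 then phosphorylate STAT proteins, and Stat2 joins Irf9 in the complex ISGF3. ISGF3 binds the interferon-stimulated response element (ISRE) in the promoters of interferon-stimulated genes, Irf7 amplifies the production of interferon, and Usp18 dampens the receptor. In the liver, hepatocytes respond to interferon and are also a target of hepatotropic viruses. Nrf2 (encoded by *Nfe2l2*) is the master regulator of the antioxidant response, and p65 (encoded by *Rela*) is the main transactivating subunit of NF-κB.

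Library totals ranged from 33707165 to 49897382 estimated counts. The summed level of 10 hepatocyte markers lay between 3664390 and 5792670 normalized counts in every library, whereas the summed level of 12 Kupffer cell markers ranged from 264 to 957 in the 5 control and Nrf2 KO libraries, from 4470 to 6083 in p65 KO and from 1661 to 2924 in DKO. All 12 Kupffer cell markers passed the test upward in p65 KO against control, as did 8 of 8 sinusoidal endothelial and 6 of 8 stellate cell markers. Of all tested genes, 14.9% passed there. Marker RNA of Kupffer, sinusoidal endothelial and stellate cells was thus higher in p65 KO. Not every non-parenchymal list rose in this way: the summed cholangiocyte and B cell markers were 1.13 and 0.36 times control in p65 KO. In DKO, 5 of the 12 Kupffer cell, 1 of 8 endothelial and 1 of 8 stellate cell markers passed, all upward, where 5.45% of all tested genes passed. The summed endothelial and stellate levels were 3.56 and 7.52 times control in p65 KO, and 1.95 and 2.17 times in DKO. Plasmacytoid dendritic cells are known for high interferon production, and the summed level of 10 of their markers was 253 to 373 normalized counts per library. Of these, *Siglech* had 0 to 7 counts per library, *Cox6a2* had 0 in all, and *Tcf4* had 194 to 350. *Nfe2l2* was higher in Nrf2 KO (log2 fold change 1.21) and in DKO (1.02) than in control, and *Rela* differed from control by at most 0.07 on the log2 scale in the 3 knockouts. These are totals over the whole gene, in which deleted exons cannot be told from the rest, so they do not check the deletion.

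The following promoter sequences show where matches to the ISRE core lay in 5 members, beside 1 member without a match. They are the 130 bases before the annotated start site of 6 members, read 5′ to 3′ on the strand of the gene from the GRCm39 genome with GENCODE M39 starts, and capitals mark the ISRE core, GAAANNGAAA on either strand. The 5 genes shown with capitals are those that were called lower in DKO than in Nrf2 KO, described further on, and *Oasl2* is shown because its pattern was different.
Isg15, chr4:156285304-156285433, minus strand: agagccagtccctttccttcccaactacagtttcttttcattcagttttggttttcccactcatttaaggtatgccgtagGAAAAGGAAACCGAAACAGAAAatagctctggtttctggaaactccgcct
Ifit1, chr19:34618141-34618270, plus strand: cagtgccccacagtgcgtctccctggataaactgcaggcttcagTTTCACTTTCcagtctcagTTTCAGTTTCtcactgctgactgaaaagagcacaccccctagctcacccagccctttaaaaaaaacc
Ifit3, chr19:34560769-34560898, plus strand: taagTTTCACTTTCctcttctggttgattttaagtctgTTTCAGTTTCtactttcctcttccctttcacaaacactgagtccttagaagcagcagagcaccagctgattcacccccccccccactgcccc
Rsad2, chr12:26506452-26506581, minus strand: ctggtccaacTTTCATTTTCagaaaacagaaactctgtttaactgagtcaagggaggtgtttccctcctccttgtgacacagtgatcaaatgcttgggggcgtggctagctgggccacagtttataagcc
Usp18, chr6:121222727-121222856, plus strand: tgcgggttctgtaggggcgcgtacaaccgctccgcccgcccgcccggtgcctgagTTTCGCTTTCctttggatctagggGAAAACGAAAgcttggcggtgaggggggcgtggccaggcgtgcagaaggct
Oasl2, chr5:115034867-115034996, plus strand: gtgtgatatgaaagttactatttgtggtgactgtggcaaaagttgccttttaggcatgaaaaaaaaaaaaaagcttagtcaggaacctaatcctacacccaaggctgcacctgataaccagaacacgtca

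*Isg15* held 3 overlapping ISRE cores between 50 and 29 bases before its start, *Usp18* held 1 core on each strand at 75 to 66 and 51 to 42 bases, and *Ifit1* and *Ifit3* each held 2 separate cores. *Rsad2* held 1 core at 120 to 111 bases. Over the 250 bases before the start, *Stat2* held a core as well, at 207 to 198 bases, so that 6 of the 9 members had one, compared with 18 of 60 other interferon-stimulated genes and 3.22% of the promoters of 13637 tested genes of the same length. *Oasl2*, *Irf7* and *Irf9* had no core in this window. The shorter form GAAANNGAA, which lies within the core, was present in the same 6 members and in 7.22% of all promoters. The antioxidant response element core TGACNNNGC, the sequence read by Nrf2 with small Maf proteins, was present in *Oasl2*, *Rsad2* and *Irf7* and in 10.6% of all promoters. The κB consensus was present in none of the members and in 8.27% of all promoters. These matches describe the letters in the window only.

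The 9 genes lie on 8 chromosomes of GRCm39. *Isg15* spans chr4:156283883-156285303 and has 2 exons in its canonical transcript, and *Ifit1* (chr19:34618271-34632174) and *Ifit3* (chr19:34560899-34566443) are neighbours with 2 exons each. *Rsad2* spans chr12:26492745-26506451, *Usp18* chr6:121222848-121247877 and *Oasl2* chr5:115034997-115050295. *Irf7* spans chr7:140842619-140846398, *Irf9* chr14:55841028-55847812 and *Stat2* chr10:128106352-128128735. *Ifit3* shared 39.1% of its 31-base words with its paralog *Ifit3b*, so part of its reads could be assigned to either gene. *Irf9* overlaps *Rnf31* on the same strand, and *Irf7*, *Usp18*, *Ifit1* and *Isg15* overlap genes of the opposite strand, which the stranded library kit distinguishes. Per kilobase of canonical transcript, the mean control level was highest for *Irf7* (436 normalized counts per kilobase), *Isg15* (377), *Irf9* (350) and *Stat2* (340) and lowest for *Ifit1* (39.4) and *Oasl2* (9.29).

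The genes split into groups with different orders of the genotypes. By group mean, *Isg15*, *Ifit1* and *Ifit3* were highest in Nrf2 KO and lowest in DKO, *Usp18* was high in each single knockout and back near control in DKO, *Rsad2* was low in both genotypes without p65, and *Oasl2* was high in p65 KO alone. *Irf9* and *Stat2* differed by less than 2-fold between any of the 10 libraries.

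**Figure D1:**
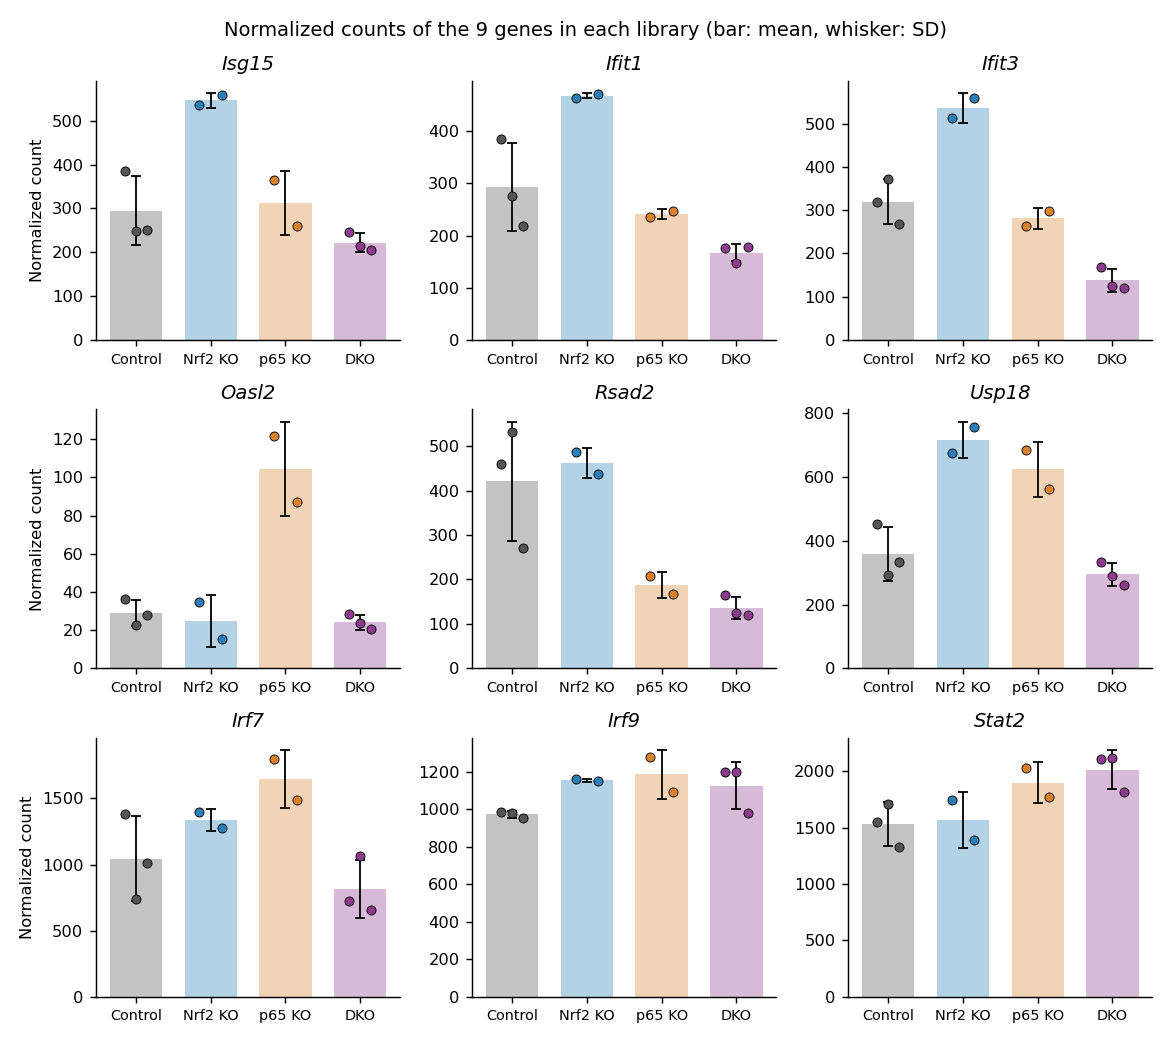
Normalized counts (vertical axis, from 0) of each of the 9 genes in the 10 libraries by genotype; points are libraries, bars the group means and whiskers the SD (n = 3, 2, 2 and 3 mice). *Ifit3* lay between 120 and 168 in DKO and between 512 and 560 in Nrf2 KO, while *Oasl2* exceeded 37 only in the 2 p65 KO libraries, at 122 and 87.0.

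*Stat2* and *Irf9* encode the subunits of ISGF3 that are specific to the type I and type III interferon response. *Stat2* had 1554, 1715 and 1330 normalized counts in the 3 control libraries, 1742 and 1391 in Nrf2 KO, 2028 and 1769 in p65 KO, and 2109, 2121 and 1819 in DKO. Every DKO and every p65 KO library exceeded the controls, but the log2 fold changes of 0.40 ± 0.13 (SE; adjusted p = 0.104) in DKO and 0.31 ± 0.14 (adjusted p = 0.168) in p65 KO did not pass the test. *Irf9* had 987, 980.4 and 953 in control, 1162 and 1150.2 in Nrf2 KO, 1278 and 1095 in p65 KO, and 1200.2, 1200.6 and 982 in DKO. Its log2 fold changes against control were 0.25 in Nrf2 KO (95% confidence interval −0.02 to 0.51), 0.29 in p65 KO (0.02 to 0.55) and 0.21 in DKO (−0.03 to 0.45), with adjusted p values of 0.585, 0.131 and 0.277. In no comparison between genotypes did *Stat2* or *Irf9* pass the test, and the highest upper limit of the intervals against control was 0.68, for *Stat2* in DKO.

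*Irf7* encodes the interferon regulatory factor that drives interferon alpha genes and is itself interferon-inducible. It had 1379, 739 and 1014 normalized counts in control, 1394 and 1279.5 in Nrf2 KO, 1800.2 and 1491 in p65 KO, and 724, 1063 and 653 in DKO. Both p65 KO libraries lay above all others, and the DKO libraries lay below both Nrf2 KO libraries but overlapped the controls. *Irf7* was 2.02-fold lower in DKO than in p65 KO (log2 fold change −1.02 ± 0.25, adjusted p = 0.0480). This call was lost without any one of Control 3, either Nrf2 KO, either p65 KO, DKO 1 or DKO 3, with adjusted p between 0.0683 and 0.232, and with size factors in place of TMM (adjusted p = 0.0503). Against control it did not pass in Nrf2 KO (0.36, adjusted p = 0.748), p65 KO (0.66, adjusted p = 0.0997) or DKO (−0.36, adjusted p = 0.376).

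*Ifit3* and *Ifit1* encode tetratricopeptide-repeat proteins, of which Ifit1 binds viral RNA and blocks its translation. *Ifit3* had 319, 372 and 269 normalized counts in control, 512 and 560.2 in Nrf2 KO, 263 and 299 in p65 KO, and 168, 126 and 120.1 in DKO. The 3 DKO libraries were the lowest and the 2 Nrf2 KO libraries the highest of the 10, without overlap with any other genotype. *Ifit3* was 2.31-fold lower in DKO than in control (log2 fold change −1.21 ± 0.17, 95% confidence interval −1.59 to −0.83, adjusted p = 0.00375) and 3.88-fold lower than in Nrf2 KO (−1.96 ± 0.19, adjusted p = 0.00116), where it ranked 6 by p among the 13641 genes. Both calls were kept in all 19 alternatives run for each. Against p65 KO it was 2.03-fold lower (−1.02 ± 0.19, adjusted p = 0.0196), a value close to the 2-fold threshold that was no longer called in 7 of 19 alternatives. Leaving out either p65 KO library, DKO 2 or DKO 3 was among them, with log2 fold changes between −1.11 and −0.93.

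*Ifit1* had 384, 276 and 218 normalized counts in control, 465 and 471 in Nrf2 KO, 235 and 248 in p65 KO, and 176, 148 and 179 in DKO. Its order was that of *Ifit3*, with DKO below and Nrf2 KO above every other library. It was 2.79-fold lower in DKO than in Nrf2 KO (log2 fold change −1.48 ± 0.21, adjusted p = 0.0111). Against control it was 1.74-fold lower in DKO (−0.80 ± 0.19, adjusted p = 0.0375), which passed the test but not the 2-fold threshold, and 1.60-fold higher in Nrf2 KO (0.68 ± 0.21, adjusted p = 0.253), which did not pass. The pass in DKO against control was kept in only 7 of 19 alternatives, with log2 fold changes between −0.98 and −0.56 over all 19. The call against Nrf2 KO was lost without Nrf2 KO 1 (adjusted p = 0.0913) or Nrf2 KO 2 (adjusted p = 0.105).

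*Isg15* encodes the ubiquitin-like protein that is conjugated to other proteins during the interferon response. It had 385, 249 and 251 normalized counts in control, 535 and 558 in Nrf2 KO, 364 and 259.9 in p65 KO, and 247, 214 and 205 in DKO. Nrf2 KO was again above every other library, and DKO lay below the lowest control by a margin of less than 2 counts. *Isg15* was 2.46-fold lower in DKO than in Nrf2 KO (log2 fold change −1.30 ± 0.21, adjusted p = 0.0235), and this call was lost without Nrf2 KO 1, Nrf2 KO 2, DKO 2 or DKO 3, with adjusted p of 0.129, 0.169, 0.0528 and 0.0699. Against control, values of 0.89 ± 0.21 in Nrf2 KO (adjusted p = 0.113), 0.08 ± 0.22 in p65 KO (adjusted p = 0.831) and −0.41 ± 0.20 in DKO (adjusted p = 0.247) did not pass. Without Control 1, the control library with the highest *Isg15*, the Nrf2 KO value was 1.13 and was called (adjusted p = 0.0478).

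*Rsad2* encodes viperin, an enzyme that makes a chain-terminating nucleotide and restricts many viruses. It had 459, 531 and 272 normalized counts in control, 486 and 437 in Nrf2 KO, 208 and 166 in p65 KO, and 165, 125 and 119 in DKO. All 5 libraries without p65 were below all 5 libraries with p65. *Rsad2* was 3.08-fold lower in DKO than in control (log2 fold change −1.62 ± 0.24, adjusted p = 0.00461) and 3.38-fold lower than in Nrf2 KO (−1.76 ± 0.26, adjusted p = 0.0135). It was 2.25-fold lower in p65 KO than in control (−1.17 ± 0.27, adjusted p = 0.0184), while DKO and p65 KO differed by −0.46 (95% confidence interval −1.05 to 0.13, adjusted p = 0.339). The value in p65 KO against control was no longer called without Control 1, Control 2 or either p65 KO library, between −1.34 and −0.96, and that in DKO against Nrf2 KO without either Nrf2 KO library (adjusted p = 0.108 and 0.0836).

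*Oasl2*, a member of the oligoadenylate synthetase family, had the lowest level of the 9 genes. It had 36.4, 22.6 and 28.0 normalized counts in control, 34.6 and 15.4 in Nrf2 KO, 122 and 87.0 in p65 KO, and 28.4, 23.6 and 20.6 in DKO. Only the p65 KO libraries stood apart, and the other 3 genotypes overlapped. *Oasl2* was 3.59-fold higher in p65 KO than in control (log2 fold change 1.85 ± 0.40, adjusted p = 0.0155), 4.20-fold higher than in Nrf2 KO (2.07 ± 0.46, adjusted p = 0.0220) and 4.29-fold lower in DKO than in p65 KO (−2.10 ± 0.41, adjusted p = 0.0233). Kupffer cell markers were 7.65 times the control level in p65 KO and 3.19 times in DKO, where *Oasl2* was not above control (log2 fold change −0.26, 95% confidence interval −1.11 to 0.60), and the part of non-parenchymal RNA in the p65 KO value was not tested. In bulk RNA, a different number of cells of a type and a different amount of RNA per cell cannot be told apart. Without p65 KO 1 the value against control was 1.58 and was not called (adjusted p = 0.131), and against the other genotypes calls were lost without either p65 KO library, Nrf2 KO 2 or DKO 1, with values between 1.59 and 2.29 against Nrf2 KO and between −2.33 and −1.84 in DKO against p65 KO.

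*Usp18* encodes the deISGylase that removes Isg15 from proteins and blocks signalling at Ifnar2. It had 453, 291 and 332 normalized counts in control, 675 and 756 in Nrf2 KO, 685 and 563 in p65 KO, and 333, 291 and 259.7 in DKO. All 4 single-knockout libraries were above all 6 control and DKO libraries. It was the only member that passed the test in Nrf2 KO against control, by a factor of 1.997 (log2 fold change 0.998 ± 0.187, adjusted p = 0.0424), a value just under the 2-fold threshold. *Usp18* kept this pass in only 7 of 18 alternatives, with log2 fold changes between 0.87 and 1.20 over all 18. It also passed in p65 KO (0.80 ± 0.19, adjusted p = 0.0198), but not in DKO (−0.28 ± 0.17, adjusted p = 0.364). In DKO it was 2.43-fold lower than in Nrf2 KO (−1.28 ± 0.19, adjusted p = 0.0135) and 2.12-fold lower than in p65 KO (−1.08 ± 0.19, adjusted p = 0.0160). These calls were lost without either Nrf2 KO library (adjusted p = 0.0835 and 0.130), and without either p65 KO library or DKO 3 (−1.22 to −0.93). Without Control 1 the values against control were 1.20 in Nrf2 KO and 1.00 in p65 KO, and both were called.

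Counted over the 9 genes, the 3 comparisons with control, which share the control libraries, gave few calls. A gene passed at an adjusted p of at most 0.05 and was called if it also changed at least 2-fold. In Nrf2 KO, 1 member passed by edgeR, 3 by DESeq2 and 0 by limma, 0 were called by any of the 3 tools, and 4 had an unadjusted p below 0.05 in edgeR. Of all tested genes, 0.726% passed and 0.55% were called. In p65 KO, 2 members passed upward and 1 downward, of which *Oasl2* and *Rsad2* were called, where 14.9% of all genes passed and 6.59% were called. In DKO, *Ifit3*, *Rsad2* and *Ifit1* passed, all downward, and the former 2 were called, against 5.45% and 2.38% of all genes. The *Ifit1* pass was kept in only 7 of 19 alternatives. The median log2 fold change of the members was 0.36 for Nrf2 KO, 0.29 for p65 KO and −0.36 for DKO, where the medians of all tested genes were 0.0018, 0.00090 and 0.025.

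**Figure D2:**
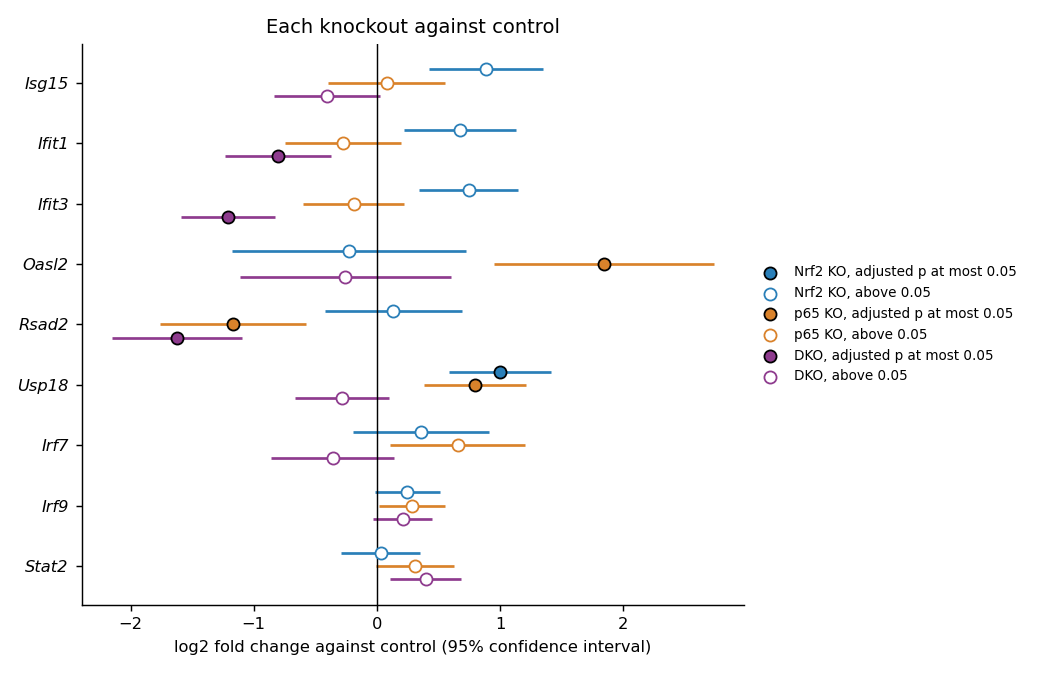
Log2 fold change against control (horizontal axis) of each gene in Nrf2 KO, p65 KO and DKO, with the 95% confidence interval as a line; filled points had an adjusted p of at most 0.05. *Ifit1*, *Ifit3* and *Isg15* had positive values in Nrf2 KO (0.68 to 0.89) and negative values in DKO (−1.21 to −0.41), and *Oasl2* had its only positive value in p65 KO.

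The number of calls was larger when DKO was compared with Nrf2 KO, the comparison that asks what the added loss of p65 did in hepatocytes without Nrf2. Here 5 of the 9 members were called, *Isg15*, *Ifit1*, *Ifit3*, *Rsad2* and *Usp18*, all lower in DKO, whereas 0.513% of all tested genes passed and 0.433% were called. The median of the members was −1.28, against 0.0079 for all tested genes. Only *Ifit3* was called when either Nrf2 KO library was left out, which reduced that arm to 1 library. In DKO against p65 KO, *Ifit3*, *Oasl2*, *Usp18* and *Irf7* were called, all lower in DKO, with a median of −0.53 over the members, where 4.11% of all genes passed and 1.78% were called. Without p65 KO 1 or p65 KO 2 the number called was 0, without DKO 1 it was 2, and without DKO 3 it was 1. In p65 KO against Nrf2 KO, *Oasl2* was called higher and *Rsad2* lower, and *Ifit1* (−0.96 ± 0.23, adjusted p = 0.0287) and *Ifit3* (−0.93 ± 0.20, adjusted p = 0.0200) also passed, where 10.4% of all genes passed and 5.19% were called. Of these calls, 1 was kept without Nrf2 KO 1 and 0 without Nrf2 KO 2, p65 KO 1 or p65 KO 2.

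The interaction asks whether the loss of Nrf2 acted differently in hepatocytes with and without p65, and is the log2 fold change of DKO over p65 KO minus that of Nrf2 KO over control. *Usp18* was called with −2.08 ± 0.27 (95% confidence interval −2.67 to −1.49, adjusted p = 0.0106) and *Ifit3* with −1.77 ± 0.26 (−2.34 to −1.19, adjusted p = 0.0221), where 0.469% of all tested genes passed and 0.455% were called. For *Usp18*, loss of Nrf2 went with a value of 0.998 when p65 was present and of −1.08 when it was absent, and for *Ifit3* these values were 0.75 and −1.02. *Isg15* (−1.38 ± 0.30, adjusted p = 0.0878), *Irf7* (−1.37 ± 0.35, adjusted p = 0.134), *Ifit1* (−1.20 ± 0.30, adjusted p = 0.121) and *Oasl2* (−1.88 ± 0.59, adjusted p = 0.215) had values of the same sign that did not pass. *Rsad2* (−0.59), *Irf9* (−0.32) and *Stat2* (0.06) had intervals that included 0. Outside the members, interaction values were negative for 46 of 60 other interferon-stimulated genes and 24 of 24 genes induced mainly by interferon gamma. Of the markers, 12 of 12 Kupffer cell and 8 of 10 hepatocyte genes had negative values, and 6 of 8 T and NK cell genes positive ones. Of all 13641 tested genes, 6954 had positive values. The *Usp18* call was lost without Nrf2 KO 2 (adjusted p = 0.0727) or p65 KO 1 (adjusted p = 0.0810), and the *Ifit3* call without Control 1 (adjusted p = 0.0597), Nrf2 KO 2 (adjusted p = 0.124), p65 KO 1 (adjusted p = 0.0909) or p65 KO 2 (adjusted p = 0.0880).

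**Figure D3:**
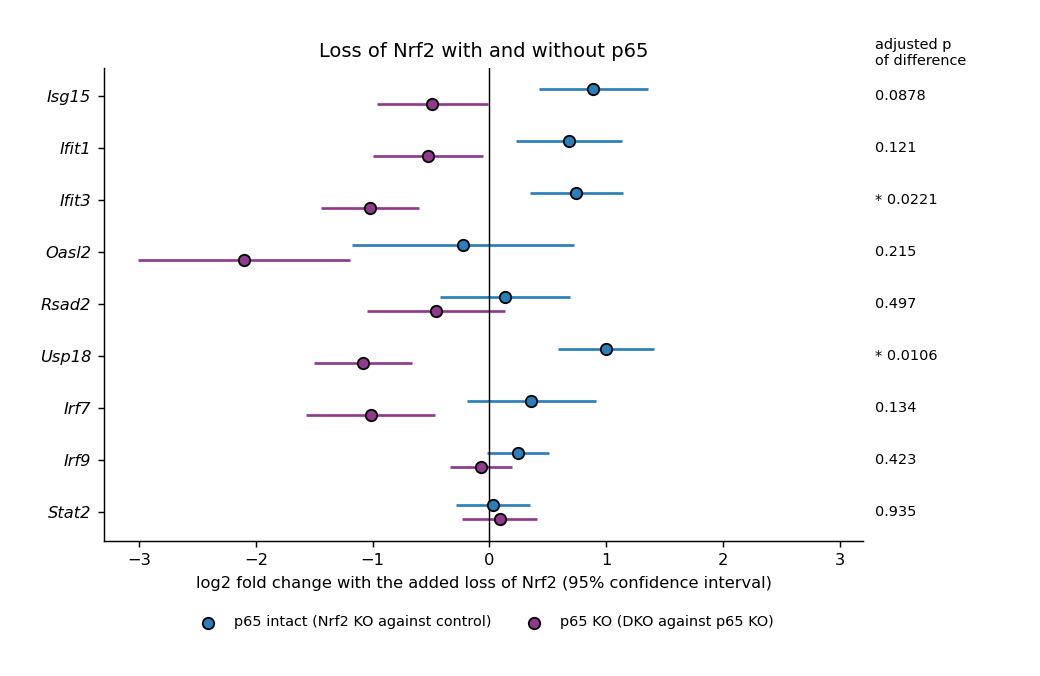
Log2 fold change that went with the loss of Nrf2 (horizontal axis, with 95% confidence intervals) when p65 was intact (Nrf2 KO against control) and when it was deleted (DKO against p65 KO), with the adjusted p of the difference at the right and an asterisk where it was at most 0.05. The 2 values lay on opposite sides of 0 for *Usp18* (0.998 and −1.08) and *Ifit3* (0.75 and −1.02), while those of *Stat2* were 0.03 and 0.09.

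A wider list of interferon-stimulated genes held calls in both directions. Of 64 such genes, 61 were in the table and 60 were tested. In Nrf2 KO against control, 0 of them passed in edgeR or limma and 1 in DESeq2, 13 had an unadjusted p below 0.05, and 48 values were positive and 11 negative, with a median of 0.24. In p65 KO, 15 of the 60 passed upward and 4 downward, where 14.9% of all tested genes passed. Higher were *Slfn5* (2.18 ± 0.39, adjusted p = 0.00624) and *Uba7*, the activating enzyme for Isg15 (1.32 ± 0.20, adjusted p = 0.00356). Lower were *Trim34a* (−1.43), *Cmpk2* (−1.37), the nucleotide kinase gene next to *Rsad2*, and *Oasl1* (−1.22), a repressor of Irf7 translation. The called genes of this list numbered 14, and 2 without p65 KO 1, 7 without p65 KO 2, 8 without Control 1 and 9 without Control 2.

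In DKO, 2 of the 60 passed upward, *Uba7* (0.83 ± 0.19, adjusted p = 0.0301) and *Ifi44l*, and 3 downward, and 4 of the 60 were called, where 5.45% of all tested genes passed and 2.38% were called. The share that passed was thus near that of all genes. The 3 lower genes were *Ifi44* (−1.51 ± 0.26, adjusted p = 0.0110), *Ifit3b* (−1.43 ± 0.30, adjusted p = 0.0221) and *Cmpk2* (−1.40 ± 0.28, adjusted p = 0.0210). *Ifi44* had 109, 87.5 and 123 normalized counts in control, 161 and 238 in Nrf2 KO, 176 and 147 in p65 KO, and 27.4, 39.3 and 45.8 in DKO. DKO thus lay below every other library for *Ifi44*, as for *Ifit3*. Its interaction was −3.01 ± 0.39 (adjusted p = 0.0106), the only one of the 60 that passed. The neighbouring *Ifi44l* had 0 counts in the 7 libraries of the other genotypes and 19, 17 and 8 counts in DKO. In DKO against Nrf2 KO, 3 of 60 passed, *Ifi44* (−2.41), *Ifit3b* (−1.81) and *Dhx58* (−0.85), all lower, where 0.513% of all tested genes passed. The list median was −0.19. In DKO against control, the calls of this list numbered 4, and 1 without Control 1 or Control 2 and 2 without DKO 1 or DKO 2.

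**Figure D4:**
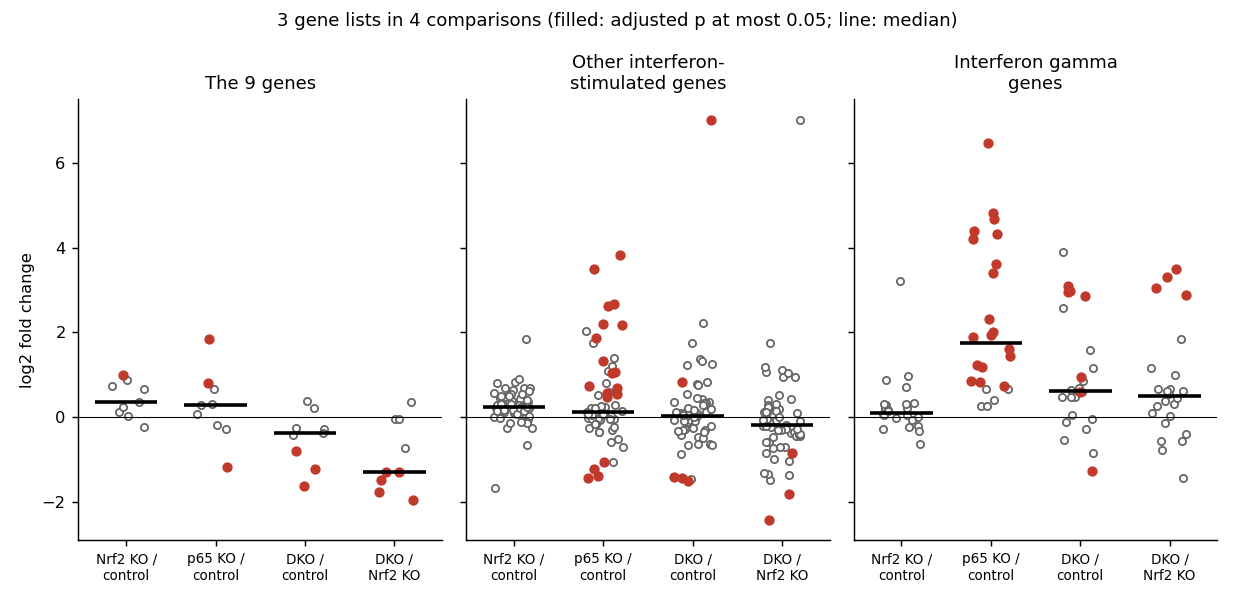
Log2 fold changes (vertical axis) of the 9 genes, 60 other interferon-stimulated genes and 24 genes induced mainly by interferon gamma in 4 comparisons; each point is a gene, filled where its adjusted p was at most 0.05, and the line is the list's median. The median of the 9 genes was −1.28 in DKO against Nrf2 KO, where that of the other interferon-stimulated genes was −0.19, and the interferon gamma genes had their highest median, 1.76, in p65 KO against control.

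Upstream of the members, no interferon gene was measurable. Of 21 interferon ligand genes, 20 had 0 counts in every library and the remaining gene, *Ifnk*, had 3 counts in total, so none was tested and a count of 0 allows up to 3 counts per library. The receptor and kinase genes *Ifnar1*, *Ifnar2*, *Jak1* and *Tyk2* did not pass in any comparison with control, with log2 fold changes between −0.25 and 0.35. *Ifngr2*, a subunit of the interferon gamma receptor, fell in DKO against control (−0.61 ± 0.12, adjusted p = 0.0198). *Stat3* did not pass against control, and *Stat5b* fell in p65 KO (−0.67 ± 0.18, adjusted p = 0.0352).

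Among the 8 other interferon regulatory factor genes tested, *Irf8* (2.19 ± 0.34, adjusted p = 0.00369) and *Irf1* (1.19 ± 0.18, adjusted p = 0.00336) rose in p65 KO. In DKO *Irf8* rose (1.25 ± 0.32, adjusted p = 0.0480). *Irf8*, a factor of the myeloid lineage, had 22.4 to 39.3 normalized counts in control, 165 and 122 in p65 KO and 52.6 to 91.5 in DKO. It moved with the Kupffer cell markers, and their part in it was not tested. Of 16 sensors of viral nucleic acid and their adaptors, 0 passed in Nrf2 KO by edgeR, where 3 had an unadjusted p below 0.05, and 0 in DKO, where 2 had one. In p65 KO, *Tlr7* (3.83) and *Zbp1* (0.75) rose and *Dhx58*, which encodes the RNA helicase Lgp2, fell (−1.05 ± 0.16, adjusted p = 0.00291). Among 8 negative regulators, *Socs3* rose in p65 KO (3.16 ± 0.78, adjusted p = 0.0241), with 3963 and 807 normalized counts there and 84.0 and 919 in Nrf2 KO, so that its p65 KO and Nrf2 KO libraries overlapped.

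The highest median in p65 KO among the interferon pathway lists was that of genes induced mainly by interferon gamma, at 1.76. Of these, 19 of 24 passed, all upward, where 14.9% of all tested genes passed. Of genes averaging 50 normalized counts or more, the highest values were those of the MHC class II genes *H2-Aa* (4.68), *H2-Ab1* (4.40), *Cd74* (4.33) and *H2-Eb1* (4.20) and of the GTPase gene *Tgtp2* (3.62). In DKO, 6 passed upward and 1 downward, where 5.45% of all tested genes passed. Among those higher were *H2-Ab1* (3.10), *H2-Eb1* (2.98), *Cd74* (2.95) and *H2-Aa* (2.87), while *Cxcl9*, a chemokine gene, fell (−1.26 ± 0.28, adjusted p = 0.0293). MHC class II is expressed mainly by antigen-presenting cells, and the part of such cells in these values was not tested.

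The members themselves did not form 1 pattern. Over the 10 libraries, the correlation of a member's standardized log2 level with the mean of the other 8 was 0.92 for *Usp18*, 0.82 for *Isg15*, 0.77 for *Irf7*, 0.68 for *Ifit3* and 0.65 for *Ifit1*, and lower for *Rsad2* (0.40), *Irf9* (0.37), *Oasl2* (0.32) and *Stat2* (−0.27). Among 10039 genes outside the lists, all averaging 50 normalized counts or more, those whose level was most correlated with the mean of the 9 over the 10 libraries were *Apol9a* (r = 0.93), *Pde7b* (0.88), *Col4a2* (0.88), *Lysmd1* (0.87) and *Dpp3* (0.87). *Apol9a* had 2527, 1616 and 1625 normalized counts in control, 2935 and 3083 in Nrf2 KO, 3550 and 3146 in p65 KO, and 1942, 1962 and 1021 in DKO. These correlations describe 10 libraries that share 4 genotypes.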

How the data were processed

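RNA of freshly isolated hepatocytes (Liberase perfusion, low-speed centrifugation, Percoll) from 10 mice of 4 genotypes was sequenced with a stranded poly(A) kit. The authors quantified reads with Salmon 1.10.3 on GRCm39 and used DESeq2 1.42.1. The deposited table holds 1 rounded estimated count per gene and library (expected counts); its totals differ between libraries, so it was treated as not scaled. The highest total was 49897382 and the lowest 33707165; low counts, as for *Oasl2*, were the least precise.

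Here, edgeR 4.0.16 was run on the genes whose summed count reached 10 (TMM, quasi-likelihood, 1 model of 4 genotypes, 7 comparisons), with Benjamini-Hochberg adjustment over all 13641 genes. To normalize, each count was divided by its library's effective size (total times TMM factor) over the mean effective size. SE and intervals come from the same fit. Alternatives were another filter or none, other scalings, DESeq2 1.42.0, limma 3.58.1 with pseudocount 1, a fit restricted to the genotypes compared, a block for the replicate number, summed paralogs, and each library left out. The fit was tested on simulated data. The mice are separate animals per the labels, which give no batch. All 9 members were named; of other lists, up to 5 called genes with the largest change against control and a mean of at least 50, and any receptor, kinase, STAT or interferon regulatory factor gene. *Ifi44l*, *Ifnk*, *Tlr7*, *Zbp1* and the markers *Siglech*, *Cox6a2* and *Tcf4* were named after their values were seen. The members and gene lists were chosen with earlier results of these data known. Promoters are the 250 bases before GENCODE M39 canonical starts; of 21939 identifiers, 21926 matched that annotation. Some results of the wider lists are not reported here.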

Additional observations from a re-analysis of the deposited data

Results flagged for a closer look

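For *Ifit3* and *Usp18*, the effect of the loss of Nrf2 differed between hepatocytes with and without p65 by the interaction term of the edgeR quasi-likelihood fit. The difference was −1.77 on the log2 scale for *Ifit3* (adjusted p = 0.0221) and −2.08 for *Usp18* (adjusted p = 0.0106). Negative interaction values were not particular to these genes. They were found for 24 of 24 genes induced mainly by interferon gamma, of which 2 passed, and for 46 of 60 other interferon-stimulated genes, of which 1 passed. Of the markers, 12 of 12 Kupffer cell, 8 of 8 endothelial, 7 of 8 stellate cell and 8 of 10 hepatocyte genes had them, and 0 passed. Of all 13641 tested genes, 6954 had positive values. The part of non-parenchymal RNA in the interaction was not tested. *Ifit3* was higher in 2 of 2 Nrf2 KO libraries than in all 3 controls, and lower in 3 of 3 DKO libraries than in both p65 KO libraries. The same held for *Usp18*. The share of all tested genes with such a separation was not counted. The *Ifit3* interaction call was lost without Control 1, Nrf2 KO 2, p65 KO 1 or p65 KO 2, and that of *Usp18* without Nrf2 KO 2 or p65 KO 1. No group had 4 or more libraries, so single libraries were not tested as outliers.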

How the results depend on the processing

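No call changed direction under any alternative. The 2 members called in DKO against control (*Ifit3*, *Rsad2*) were called in all of them. Against Nrf2 KO the 5 calls in DKO became 4 with the replicate block, where *Ifit1* was not called (−1.41, adjusted p = 0.0512), and 1 to 5 when single libraries were left out. The 4 calls in DKO against p65 KO became 2 with limma, 2 with the replicate block, 1 when only these genotypes were fitted, and 0 to 4 when single libraries were left out. The 2 interaction calls became 5 with DESeq2, 4 with equal totals, 1 with the replicate block and 0 to 2 when single libraries were left out. In p65 KO against control, 2 calls became 1 with equal totals, 1 with limma and 0 to 2 when single libraries were left out. In Nrf2 KO against control, 0 became 1 with equal totals and 0 to 2 when single libraries were left out. In p65 KO against Nrf2 KO, 2 became 0 to 2. Of the other interferon-stimulated genes, the 4 called in DKO became 1 with limma and 1 to 4 without single libraries, the 14 in p65 KO became 9 with limma, 9 with the replicate block and 2 to 14 without single libraries, and the 0 in Nrf2 KO became 1 with DESeq2. The cause of these changes was not tested, beyond the smaller number of libraries. Equal totals moved the median of all genes by 0.18 in p65 KO against control, 0.17 in p65 KO against Nrf2 KO and −0.27 in DKO against p65 KO and in the interaction. Of 13 same-numbered pairs of libraries, 1 deviated together from the group means with a correlation above 0.1. Deviations in groups of 2 libraries are exact opposites, and differently numbered pairs were not compared, so this cannot exclude a pairing by replicate number. Summing *Ifit3* with *Ifit3b*, or *Ifit1* with its 2 paralogs, changed no call. Summing *Ifi44* with *Ifi44l*, an alternative chosen after seeing the data, gave −0.99 (adjusted p = 0.0319) in DKO against control, no longer 2-fold. *Oasl2* had the lowest counts of the members, 15.4 to 122 normalized counts per library.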
